A study of Mus musculus with 18 samples.

Results

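The comparison described here asked whether testosterone changed gene expression differently in the meibomian gland and in the submandibular gland of the mouse. It used the 12 arrays of these 2 glands out of 18 arrays in the series. There were 4 groups of 3 pools: meibomian gland with testosterone, meibomian gland with placebo, submandibular gland with testosterone and submandibular gland with placebo. Every group came from orchiectomised male BALB/c mice that carried a testosterone or a placebo pellet for 21 days, so the placebo mice had no testes either, and testes-intact males were not part of the comparison. The labels describe each array as RNA of 10 glands pooled from 5 animals, with pools A, B and C as separate pools, and they also give 4 animals per sex and experiment. They do not say whether pools of the same letter in the 2 glands came from the same mice. The quantity reported for each probe is the testosterone minus placebo effect in the meibomian gland, minus the same effect in the submandibular gland, on the log2 scale. It is called the gland difference below: a positive value means that the testosterone effect was higher, or less negative, in the meibomian gland.

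The meibomian gland is a modified sebaceous gland of the eyelid whose cells fill with lipid and disintegrate to release meibum onto the tear film. The submandibular gland is a salivary gland with acini and, in the mouse, a granular convoluted duct that stores growth factors and kallikreins and is larger in males than in females. Both tissues express the androgen receptor, a ligand-activated transcription factor that binds DNA as a dimer and changes the transcription of nearby genes. Pools of whole tissue were measured, so fewer cells of a type and less RNA per cell cannot be told apart.

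The labelled tissues carried their own markers. The summed intensity of 6 measured sebaceous markers was 415 to 565 in meibomian testosterone pools and 356 to 369 in meibomian placebo pools, against 19.3 to 26.5 in submandibular testosterone pools and 45.0 to 55.7 in submandibular placebo pools. The 3 measured granular duct markers (Egf, Smr2 and Klk1b5) summed to 2.34 to 3.21 and 2.10 to 2.28 in the meibomian testosterone and placebo pools, and to 810 to 899 and 685 to 781 in the submandibular testosterone and placebo pools. The meibomian pools also contained skeletal muscle markers, at 128 to 162 with testosterone and 135 to 169 with placebo, and markers of keratinised eyelid skin, at 204 to 237 with testosterone and 186 to 226 with placebo. Array medians lay between 0.929 and 0.948. The median within-group SD over probes was 0.15 and 0.09 on the log2 scale in the meibomian testosterone and placebo groups, and 0.19 and 0.20 in the submandibular testosterone and placebo groups.

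Of 7085 probes tested, 632 (8.92%) had a gland difference at an adjusted p below 0.05 in limma, and these are the probes described as called. The difference was above 0 for 282 probes (3.98%) and below 0 for 350 (4.94%), and it was at least 2-fold for 301. The submandibular effect was the larger in size for 534 of the 632. In the same fit the submandibular effect was called for 1103 probes (15.6%) and the meibomian effect for 4 (0.0565%), although 1180 meibomian probes had an unadjusted p below 0.05. Of the 350 probes with a difference below 0, 325 had risen in the submandibular gland. Of the 282 probes with a difference above 0, 187 had fallen in the submandibular gland, where 695 probes rose (9.81%) and 408 fell (5.76%) in all. For 117 called probes neither single effect was called. Fitted alone, on its own 6 arrays and with its own smaller spread, the meibomian gland gave 263 calls (3.71%) and the submandibular gland 421 (5.94%). In what follows "rose" and "fell" are used of the submandibular gland from the 12-array fit and of the meibomian gland from the fit of its own arrays, and p-values are adjusted over all probes tested. For each gland this is the fit with more calls. The 12-array fit pools the spread of both glands. The median within-group SD (log2) was 0.19 and 0.20 in the submandibular testosterone and placebo groups. It was 0.15 and 0.09 in the meibomian testosterone and placebo groups. Submandibular p-values from the 12-array fit can therefore be too small for probes whose spread was larger in that gland. On its own arrays the submandibular gland had 421 calls, against 1103 in the 12-array fit. Most of the submandibular changes were therefore not called there, such as those of Fxyd2 and Mfge8 (adjusted p = 0.067 and 0.0572 in limma).

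Pools of the 2 treatments did not overlap for 36.4% of all tested probes in the meibomian gland and for 29.5% in the submandibular gland. Among the 632 called probes, the testosterone and placebo pools did not overlap in either gland, and lay apart in opposite directions, for 231. All tested probes gave 357 of this kind (5.04%). The direction was higher with testosterone in the meibomian gland and lower in the submandibular gland for 144 of the 231, and the reverse for 87. The 2 glands' pools lay apart in the same direction for 32 called probes, against 397 of all probes tested (5.6%). A call on the gland difference itself favours pools apart in opposite directions over pools apart in the same direction. The counts among called probes therefore do not show that opposite effects were frequent. For 89 of the 632 called probes (14.1%) no meibomian array was above the dim level, the 40th percentile of its array, against 573 of the 7085 tested (8.09%). In such probes the gland difference is close to the submandibular effect itself.

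**Figure D1:**
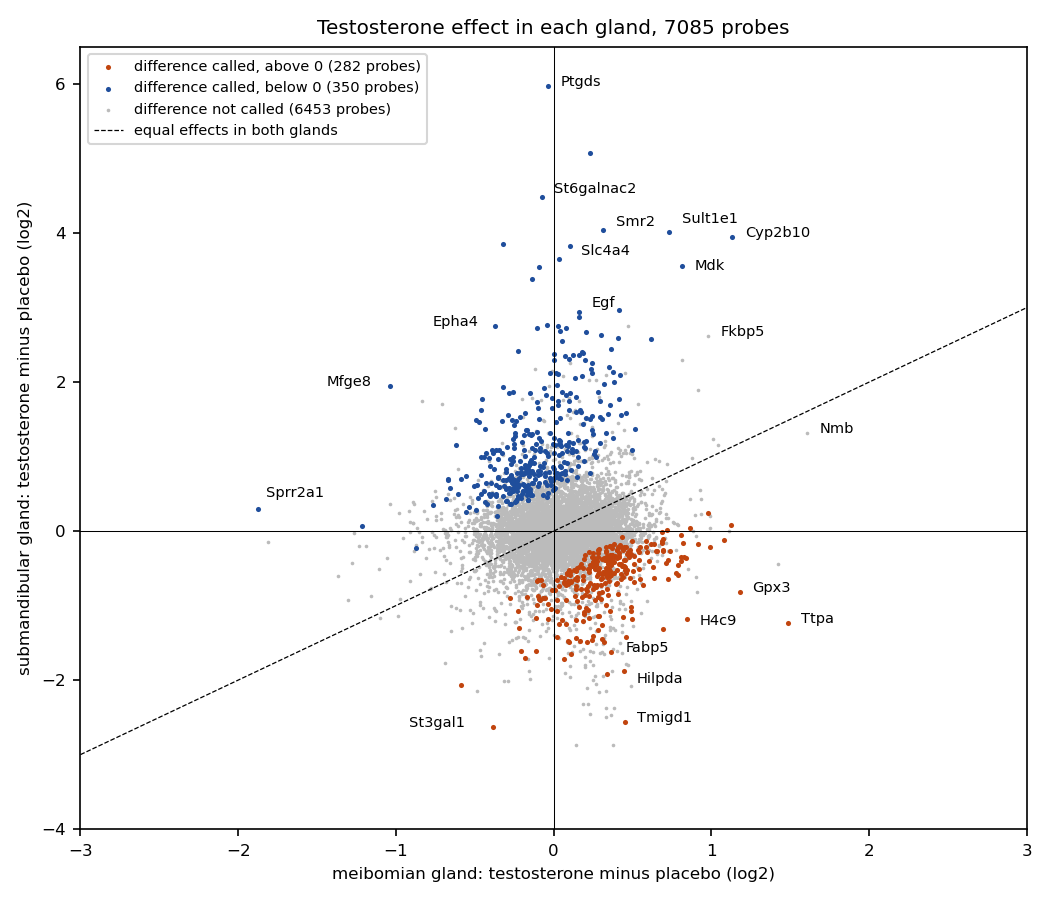
Testosterone minus placebo effect (log2) of each of 7085 probes in the meibomian gland (horizontal axis) and in the submandibular gland (vertical axis), with the 282 probes whose gland difference was called above 0 in orange, the 350 called below 0 in blue and the others in grey; the 2 axes differ in scale. The dashed line marks equal effects. The called probes spread along the vertical axis, from 5.97 for Ptgds to -2.63 for St3gal1 in the submandibular gland.

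The promoters of 4 genes taken from the patterns below are shown for the androgen receptor's binding motif. The windows are RefSeq sequences of mouse build GRCm38.p6, from 250 bases before to 50 bases after the annotated start. Where a gene had several windows, the window with the most sites is shown. The full motif searched was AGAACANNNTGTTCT, and the half-site was AGAACA, read on both strands (TGTTCT on the other), so that each full motif also holds 2 half-sites. Of 6164 tested genes, 4987 had a window. Sgk1 was the only one of them with the full motif, which occurred in 3 of 27025 genes with a window in all. It begins at position -189 from the start. Acta2 moved in opposite directions in the 2 glands with submandibular higher, H4c9 with meibomian higher, and Nmb rose in both. Each of these 4 genes has at least 1 half-site, against 15.2% of tested genes with a window. They therefore do not show how often genes of a pattern carry the motif. Capitals mark every half-site and, in Sgk1, the full motif.
Sgk1, chr10:21993640-21993939, plus strand: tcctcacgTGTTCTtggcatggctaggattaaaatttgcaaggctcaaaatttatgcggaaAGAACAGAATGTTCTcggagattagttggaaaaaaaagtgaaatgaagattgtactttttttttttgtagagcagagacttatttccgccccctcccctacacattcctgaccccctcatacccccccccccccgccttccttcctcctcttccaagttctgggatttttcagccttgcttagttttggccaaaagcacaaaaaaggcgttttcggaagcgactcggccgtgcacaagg
Acta2, chr19:34255324-34255623, minus strand: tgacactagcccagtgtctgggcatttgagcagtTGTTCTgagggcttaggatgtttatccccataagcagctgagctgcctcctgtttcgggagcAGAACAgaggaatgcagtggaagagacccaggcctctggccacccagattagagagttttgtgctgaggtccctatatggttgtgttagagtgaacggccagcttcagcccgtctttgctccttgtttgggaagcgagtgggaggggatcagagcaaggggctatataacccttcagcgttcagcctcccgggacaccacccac
H4c9, chr13:22041313-22041612, minus strand: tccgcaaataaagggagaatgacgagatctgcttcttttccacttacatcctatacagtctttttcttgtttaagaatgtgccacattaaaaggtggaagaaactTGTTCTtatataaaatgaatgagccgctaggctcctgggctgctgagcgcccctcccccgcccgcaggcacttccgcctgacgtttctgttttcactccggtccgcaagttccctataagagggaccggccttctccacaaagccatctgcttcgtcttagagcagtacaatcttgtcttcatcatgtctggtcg
Nmb, chr7:80905013-80905312, minus strand: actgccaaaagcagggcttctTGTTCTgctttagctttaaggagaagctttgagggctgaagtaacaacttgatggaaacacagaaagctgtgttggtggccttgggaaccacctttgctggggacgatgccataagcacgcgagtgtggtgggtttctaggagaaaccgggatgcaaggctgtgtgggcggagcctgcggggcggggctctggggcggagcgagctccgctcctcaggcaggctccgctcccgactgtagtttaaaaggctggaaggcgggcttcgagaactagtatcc
These shares count genes with a half-site in any of their windows. They were 40 of 188 genes with a called difference above 0 (21.3%) and 28 of 249 with a called difference below 0 (11.2%). The share was 15.2% of tested genes with a window and 21.3% of all genes with a window. A match describes these letters only, since receptor binding was not measured.

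Sgk1, the serum- and glucocorticoid-regulated kinase that keeps epithelial sodium channels at the cell surface, had 7.02, 6.003 and 7.99 units of scaled intensity in meibomian testosterone pools, against 10.6, 9.20 and 9.06 in meibomian placebo pools. Its submandibular intensity was 26.5, 15.9 and 28.0 units with testosterone, against 6.49, 6.19 and 6.91 with placebo. The pools lay apart in both glands, lower with testosterone in the meibomian gland and higher in the submandibular gland. The gland difference was -2.23 ± 0.27 (SE, adjusted p = 0.000578). The submandibular rise was 1.78 (adjusted p = 0.000104), and the meibomian effect of -0.45 was not called (adjusted p = 0.0698 on its own arrays). Among 10 tested probes of widely used androgen-induced genes, Sgk1 was the 1 with a called difference (10%, near the 8.92% over all probes). Their median difference was -0.20 against 0.05 over all probes.

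Of 9 tested probes for granular duct products, 5 had a difference below 0, each of them called, and 4 had a difference above 0 that was not called. The called share was 55.6%, against 8.92% over all probes, and the median difference was -2.11. In the submandibular gland 6 of the 9 rose, against 9.81% of all probes. With dim probes left in, more members entered and the median was 0.12. Ptgds, lipocalin-type prostaglandin D synthase, a secreted carrier of small hydrophobic ligands, had the largest difference in size of the probes tested. Its intensity was 3.56, 4.90 and 3.36 in meibomian testosterone pools and 4.57, 3.68 and 3.75 in meibomian placebo pools, which overlapped. In submandibular testosterone pools it was 47.9, 32.2 and 42.6, against 0.456, 0.417 and 0.551 in submandibular placebo pools. Thus the placebo level was higher in the meibomian gland and the testosterone level higher in the submandibular gland. The submandibular effect was 5.97 (adjusted p = 1.31e-08), the meibomian effect -0.03, and the gland difference -6.01 ± 0.25 (SE, adjusted p = 5.43e-07).

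Smr2, a submaxillary gland androgen-regulated protein, had 2.36, 2.83 and 1.92 units in meibomian testosterone pools, against 1.76, 1.78 and 2.03 in meibomian placebo pools. In submandibular pools it had 99.4, 69.7 and 80.7 units with testosterone, against 4.50, 5.11 and 4.94 with placebo. Its pools were apart in the submandibular gland only, and its gland difference was -3.73 ± 0.22 (SE, adjusted p = 6.59e-06). Egf, epidermal growth factor, the classic androgen-dependent product of the duct, had 289.7, 261 and 268 units in submandibular testosterone pools, against 33.7, 38.2 and 33.9 in submandibular placebo pools, and was at or below 0.138 in every meibomian pool. Its difference was -2.79 ± 0.20 (SE, adjusted p = 2.11e-05), and since no meibomian array had it above the dim level this is the submandibular rise of 2.95. Tgfb2 and Vegfa, growth factors also listed for the duct, differed by -2.25 ± 0.26 and -2.11 ± 0.21 (SE). Vegfa was well measured in both glands, at 2.51 ± 0.173 and 2.48 ± 0.0376 units (SD, n = 3) in meibomian testosterone and placebo pools and 34.0 ± 8.21 and 7.52 ± 0.710 units in submandibular testosterone and placebo pools. The kallikrein Klk1b5 did not follow: it averaged 509 ± 54.4 units in submandibular testosterone pools and 687 ± 49.7 in submandibular placebo pools (SD, n = 3), and its difference of 0.63 was not called (adjusted p = 0.0711). Klk1b5 belongs to a family of near-identical genes that the probe may not tell apart. Its submandibular placebo values (647, 672 and 743 units) were the highest of any probe on those arrays. The submandibular testosterone values lay below the maxima of their arrays (714, 683 and 636 units). Whether this probe was capped was not tested.

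Among 69 tested probes for growth factors and their receptors, 10 had a called difference below 0 and 4 above 0. This is 20.3%, against 8.92% over all probes. Mdk, midkine, a heparin-binding growth factor, was higher with testosterone in both glands. It had 15.4, 13.4 and 15.0 units in meibomian testosterone pools against 6.86, 9.33 and 8.65 in meibomian placebo pools, and 107, 89.3 and 108 units in submandibular testosterone pools against 13.97, 6.80 and 6.31 in submandibular placebo pools. It rose by 0.81 in the meibomian gland (adjusted p = 0.0306 on its own arrays) and by 3.56 in the submandibular gland (adjusted p = 3.71e-06), so the difference of -2.74 ± 0.35 (SE, adjusted p = 0.000866) was one of size. Ttr, transthyretin, a carrier of thyroid hormone and retinol-binding protein, averaged 8.90 ± 1.20 units in submandibular testosterone pools and 0.974 ± 0.0577 in submandibular placebo pools (SD, n = 3), was dim in the meibomian gland and differed by -2.56 ± 0.20 (SE).

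Enzymes that act on steroids, listed together with steroid receptors, gave 2 called differences among 27 tested probes, both below 0. This share (7.41%) was no higher than the 8.92% over all probes. Of the 27 differences, 18 lay above 0, and the median was 0.23. On the meibomian gland's own arrays 6 of the 27 rose and 0 fell, against 194 and 69 of all 7085 probes. Sult1e1, the sulfotransferase that inactivates oestrogens, had 114, 76.3 and 138 units in submandibular testosterone pools, against 6.38, 6.83 and 5.98 in submandibular placebo pools. In the meibomian gland it was 0.217, 0.210 and 0.118 with testosterone and 0.0280, 0.0467 and 0.0393 with placebo, apart but below the dim level on every array. The gland difference was -3.29 ± 0.27 (SE, adjusted p = 3.96e-05). Hsd17b3, which makes testosterone from androstenedione, averaged 2.58 ± 1.12 and 0.355 ± 0.0709 units in submandibular testosterone and placebo pools (SD, n = 3), was dim in the meibomian gland and differed by -2.22 ± 0.34 (SE, adjusted p = 0.00269). Hsd11b1, the reductase that regenerates active glucocorticoid, was higher with testosterone in both glands without overlap, by 0.93 in the meibomian gland (adjusted p = 0.0363 on its own arrays) and 0.55 in the submandibular gland (adjusted p = 0.0696). Its difference was 0.38, with a 95% interval from -0.19 to 0.96.

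Enzymes that build and cap glycan chains differed in both directions, with 7 of 32 tested probes called below 0 and 4 called above 0. This is 34.4%, against 8.92% over all probes, and the median was -0.02. Sialyltransferases stood on both sides. St6galnac2, which adds sialic acid to O-linked chains, had 4.30, 2.85 and 3.57 units in meibomian testosterone pools against 3.699, 4.45 and 3.13 in meibomian placebo pools. It had 38.4, 22.7 and 34.9 units in submandibular testosterone pools against 1.68, 1.29 and 0.832 in submandibular placebo pools. St3gal1, which sialylates the core of the same chains, had 13.0, 10.4 and 17.3 units in meibomian testosterone pools against 18.5, 19.3 and 14.6 in meibomian placebo pools. In the submandibular gland it went the other way from St6galnac2, at 1.16, 2.25 and 1.78 units with testosterone against 11.4, 9.45 and 13.2 with placebo. The gland differences were -4.56 ± 0.36 for St6galnac2 (SE, adjusted p = 3.05e-05) and 2.24 ± 0.34 for St3gal1 (SE, adjusted p = 0.00244), and the meibomian pools overlapped for both. St3gal5, the synthase of ganglioside GM3, differed by -1.66 ± 0.20 (SE).

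Among 22 tested probes for salivary water and ion transport, 4 differences were called below 0 and 2 above 0, with a median of -0.31. The called share was 27.3%, against 8.92% over all probes. Slc4a4, the sodium-bicarbonate cotransporter of the basolateral membrane, had 16.2, 15.1 and 20.1 units in submandibular testosterone pools against 1.36, 0.912 and 0.895 in submandibular placebo pools, and at most 0.206 in any meibomian pool. Its difference was -3.72 ± 0.24 (SE, adjusted p = 1.44e-05). Scnn1b and Scnn1g, subunits of the epithelial sodium channel, differed by -1.06 ± 0.19 and -1.14 ± 0.22 (SE), rising in the submandibular gland by 0.91 and 0.84. Fxyd2, the gamma subunit that modulates the sodium pump, fell by 0.70 in the submandibular gland, with 175 ± 42.2 units with testosterone and 279 ± 6.53 with placebo (SD, n = 3). Its difference of 1.03 (adjusted p = 0.0341) was lost under 10 of 27 alternative settings.

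Several other genes rose in the submandibular gland. Klrg2, a C-type lectin-like receptor, and Tmem37, a transmembrane protein related to calcium channel subunits, differed by -3.64 ± 0.35 and -3.51 ± 0.34 (SE). Epha4, an ephrin receptor kinase, averaged 1.23 ± 0.0817 and 1.64 ± 0.116 units in meibomian testosterone and placebo pools, and 9.18 ± 1.32 and 1.20 ± 0.0244 units in submandibular testosterone and placebo pools (SD, n = 3). Its pools lay apart in opposite directions, and the difference was -3.13 ± 0.17 (SE, adjusted p = 3.51e-06). Mfge8, a milk fat globule protein that bridges dying cells to phagocytes, had 6.63, 6.49 and 2.54 units in meibomian testosterone pools against 9.63, 11.8 and 8.97 in meibomian placebo pools, and 16.8, 17.0 and 18.9 units in submandibular testosterone pools against 7.51, 5.80 and 1.94 in submandibular placebo pools. Its difference of -2.99 ± 0.63 (SE, adjusted p = 0.0148) had a wide error. Genes that fell in the submandibular gland without overlap included Tmigd1, an immunoglobulin-domain membrane protein (difference 3.01 ± 0.43), Ctrb1, chymotrypsinogen B (2.26 ± 0.31), Slc37a2, a sugar phosphate transporter (1.78 ± 0.20), and Sox11, a developmental transcription factor that was dim in the meibomian gland (1.70 ± 0.22, each with its SE). Mucl1, a small mucin-like protein, was lower with testosterone in both glands without overlap. It averaged 0.415 ± 0.0339 units in submandibular testosterone pools against 2.34 ± 0.512 in submandibular placebo pools (SD, n = 3). Its difference was 1.49 ± 0.25 (SE). Only 1 meibomian array and 3 submandibular arrays had Mucl1 above the dim level. The meibomian effect was not called (adjusted p = 0.0652 on its own arrays).

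**Figure D2:**
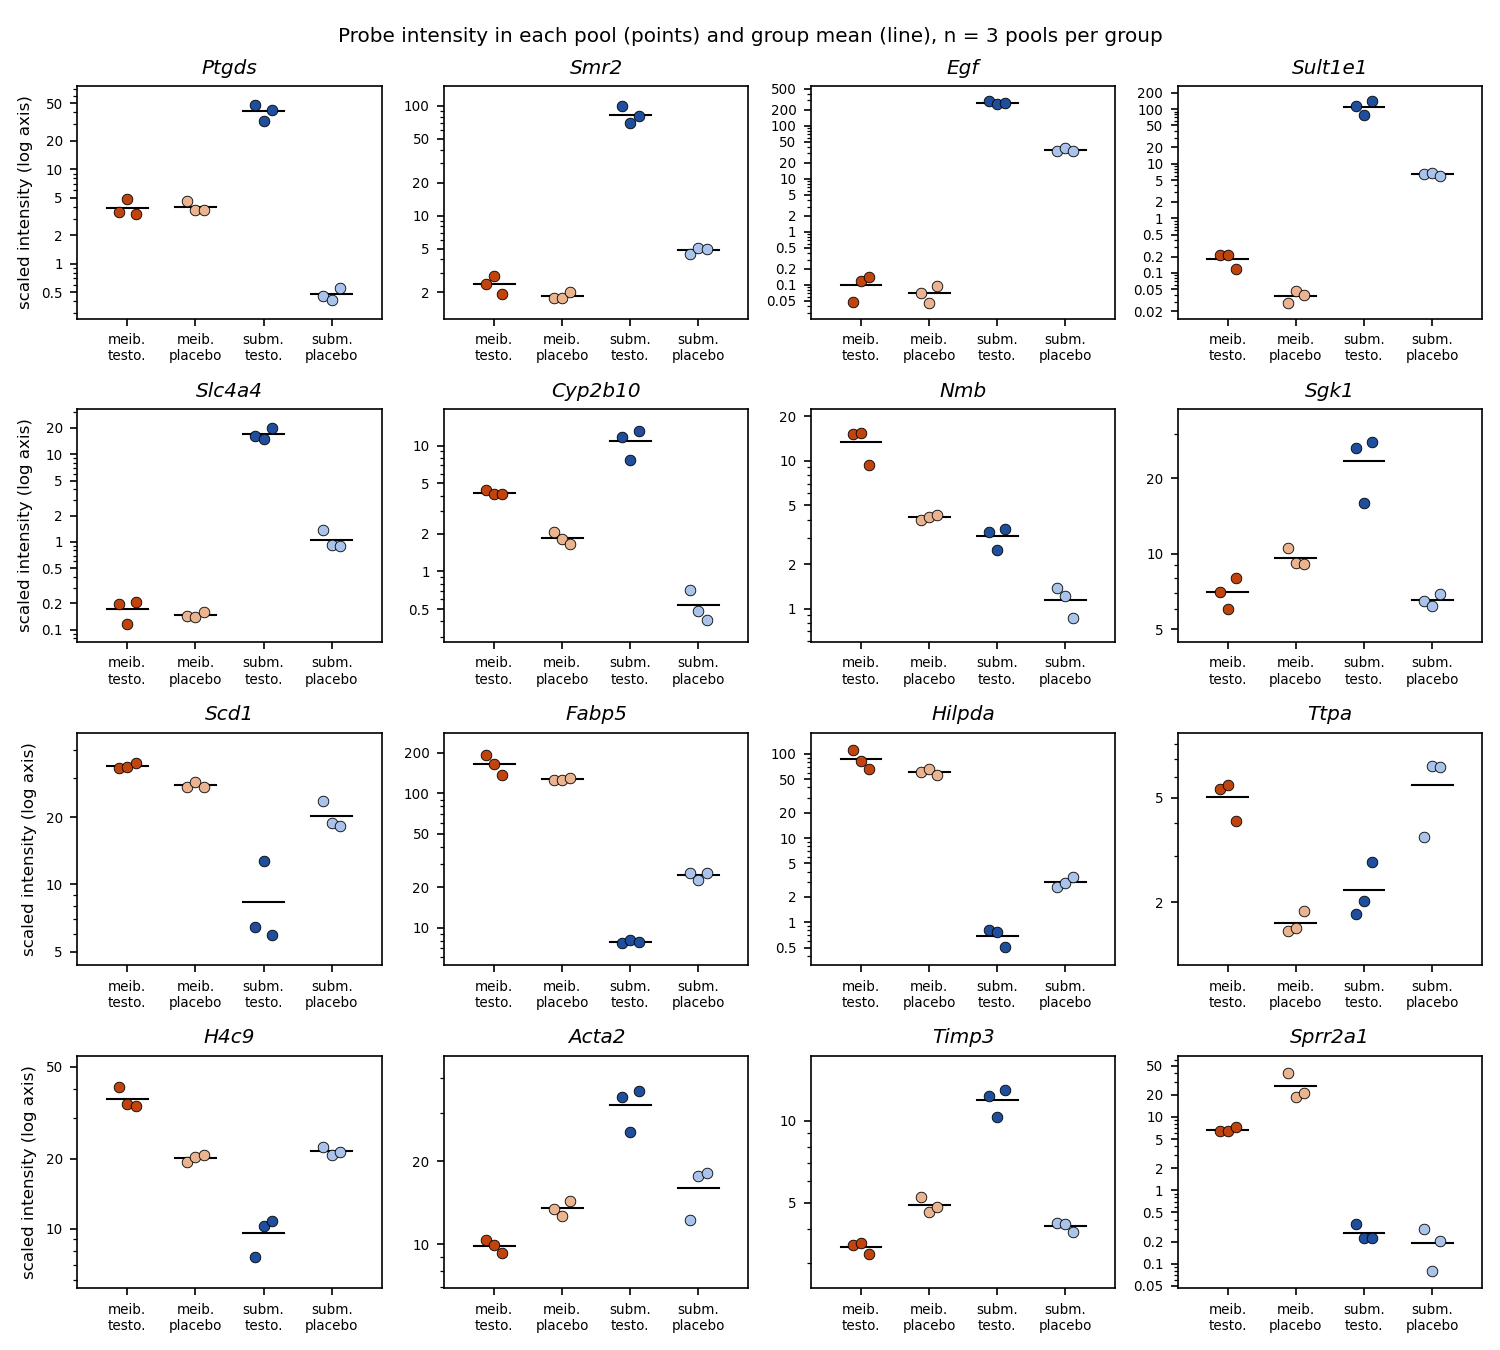
Scaled intensity (log axis) of 16 genes in each pool (points) and the mean of 3 pools (line), with meibomian testosterone, meibomian placebo, submandibular testosterone and submandibular placebo pools from left to right in each panel. For Ptgds the meibomian groups overlap at 3.36 to 4.90 units while the submandibular groups are apart; for Ttpa and H4c9 the 2 glands run in opposite directions, and for Nmb and Cyp2b10 in the same direction.

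Of 37 tested probes for fatty acid and glycerolipid synthesis, 28 had a gland difference above 0. The difference was called for 5 (13.5%, against 8.92% over all probes), each above 0. The median was 0.36, beside a median meibomian effect of 0.28 and a median submandibular effect of -0.11. Bright probes as a whole were shifted in the meibomian gland: the 709 brightest of the tested probes had a median effect of 0.27 there and 0.13 in the submandibular gland, with a median difference of 0.11. The 99th percentile of an array was 105.9 to 148.1 units in meibomian testosterone pools and 97.7 to 100.5 in meibomian placebo pools. The part of this shift in the medians of the lipid, ribosomal and oxidative phosphorylation groups was not tested. Scd1, stearoyl-CoA desaturase, which makes the monounsaturated fatty acids of sebaceous lipid, had 33.0, 33.4 and 34.9 units in meibomian testosterone pools against 27.4, 28.5 and 27.2 in meibomian placebo pools. Submandibular pools had 6.46, 12.7 and 5.96 units with testosterone against 23.6, 18.7 and 18.3 with placebo. Both glands' pools lay apart, in opposite directions. It fell by 1.33 in the submandibular gland (adjusted p = 0.00281), the meibomian effect of 0.28 was not called (adjusted p = 0.104 on its own arrays), and the difference was 1.61 ± 0.32 (SE, adjusted p = 0.0116). Elovl3, an elongase for very long fatty acids, averaged 143 ± 24.95 and 102 ± 2.87 units in meibomian testosterone and placebo pools, and 0.479 ± 0.0569 and 0.631 ± 0.00456 units in submandibular testosterone and placebo pools (SD, n = 3). Its pools were apart in both glands and the difference was 0.77 ± 0.17 (SE, adjusted p = 0.0194). Neither single effect was called (adjusted p = 0.0959 on the meibomian gland's own arrays and 0.12 in the submandibular gland). Only 3 of the 6 submandibular arrays had Elovl3 above the dim level.

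Cers4, a ceramide synthase for long acyl chains, was higher in the meibomian gland alone, with 18.6, 27.6 and 25.2 units with testosterone against 11.9, 13.4 and 13.2 with placebo, and 0.966, 1.18 and 0.891 units against 1.07, 0.898 and 0.957 in the submandibular testosterone and placebo pools. It rose by 0.87 in the meibomian gland (adjusted p = 0.0357 on its own arrays), and the difference was 0.83 ± 0.21 (SE, adjusted p = 0.0363). Acsl5, an acyl-CoA synthetase, differed by 0.69 ± 0.18 (SE, adjusted p = 0.0399). The call was lost under 13 of 27 alternatives for Cers4, 14 of 27 for Acsl5 and 2 of 26 for Elovl3. The 2 probes of Fasn, fatty acid synthase, differed by 0.84 and 0.56, and neither was called (adjusted p = 0.281 and 0.313).

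Among 28 probes for lipid droplets, sebocytes and adipocytes, 2 differences were called above 0 and 2 below 0. This is 14.3%, against 8.92% over all probes. Hilpda, a droplet protein that inhibits the lipase ATGL, had 110.0, 81.8 and 66.1 units in meibomian testosterone pools against 61.1, 67.0 and 56.9 in meibomian placebo pools. Its level in submandibular pools was 0.811, 0.759 and 0.506 units with testosterone against 2.59, 2.90 and 3.45 with placebo. Its difference was 2.32 ± 0.28 (SE, adjusted p = 0.000521). Fabp5, a fatty acid-binding protein of epidermis and sebaceous glands, had 193, 166 and 136 units in meibomian testosterone pools against 125, 126 and 129 in meibomian placebo pools, and 7.73, 8.07 and 7.82 units in submandibular testosterone pools against 25.7, 22.6 and 25.4 in submandibular placebo pools. Its difference was 1.98 ± 0.17 (SE, adjusted p = 5.29e-05), with pools apart in opposite directions. The meibomian values of Fabp5 were close to the highest of any probe on those arrays, 147.7 to 219.1 units in testosterone pools and 134.6 to 142.9 in placebo pools, and whether they were capped was not tested. The meibomian effect of 0.36 was not called (adjusted p = 0.149 on its own arrays), and Fabp5 fell by 1.62 in the submandibular gland (adjusted p = 6.4e-06). Elovl3, B2m, Rpl13 and Rps23 also lay near the maximum of at least 1 meibomian array. Abhd5 and Mgll went below 0. Abhd5, the coactivator of ATGL, had 16.1, 13.9 and 12.8 units in meibomian testosterone pools against 13.2, 12.03 and 11.8 in meibomian placebo pools, and 50.9, 43.4 and 54.2 units in submandibular testosterone pools against 9.81, 9.86 and 9.92 in submandibular placebo pools. The differences were -2.10 ± 0.16 for Abhd5 (SE, adjusted p = 2.58e-05) and -1.12 ± 0.22 for Mgll, monoacylglycerol lipase (SE, adjusted p = 0.01). Thus an inhibitor of ATGL fell and its coactivator rose in the submandibular gland.

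Of 48 probes for fatty acid oxidation and peroxisomes, 5 were called, each above 0, a share (10.4%) near the 8.92% over all probes. Of the 48, 42 lay above 0, with a median of 0.40. Acsm3, a medium-chain acyl-CoA synthetase, was 1 of the 4 meibomian probes called in the 12-array fit, with 16.7, 16.6 and 13.2 units with testosterone against 7.19, 8.11 and 7.93 with placebo. Its submandibular intensity was 2.89, 2.34 and 3.09 units with testosterone against 2.56, 2.21 and 2.15 with placebo, and its difference was 0.74 ± 0.19 (SE, adjusted p = 0.0362). Etfb, the beta subunit of the electron transfer flavoprotein, Ehhadh, the peroxisomal bifunctional enzyme, and Phyh, which starts the breakdown of branched fatty acids, differed by 0.75 ± 0.18, 0.69 ± 0.18 and 0.61 ± 0.17 (SE). In all 3 the pools were apart in opposite directions, but neither single effect was called. In that order, the adjusted p was 0.0584, 0.0679 and 0.146 in the submandibular gland. On the meibomian gland's own arrays it was 0.114, 0.129 and 0.112. The adjusted p was 0.024 for Etfb, 0.0383 for Ehhadh and 0.047 for Phyh, and the call was lost under 12 of 27 alternatives for Acsm3, 5 for Etfb, 13 for Ehhadh and 15 for Phyh.

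Of 4 adipocyte markers 2 were measured, and their sum was 1.97 to 4.45 in meibomian testosterone pools and 4.72 to 7.38 in meibomian placebo pools, against 3.59 to 16.7 in submandibular testosterone pools and 9.58 to 43.8 in submandibular placebo pools. The sums were lower with testosterone without overlap in the meibomian gland and overlapped in the submandibular gland. Retn, the adipokine resistin, was 3.37 to 4.43 in submandibular testosterone pools and 6.24 to 9.82 in submandibular placebo pools. Adipoq, adiponectin, varied from 0.218 to 12.3 in submandibular testosterone pools and from 3.34 to 33.9 in submandibular placebo pools. Neither gland difference was called (adjusted p = 0.602 for Retn and 0.731 for Adipoq), and the part of adipocytes in the lipid results was not tested.

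Of 14 probes for smooth muscle and myoepithelial genes, 12 had a gland difference below 0, and the median was -0.86. The difference was called for 8, all below 0 (57.1%, against 8.92% over all probes). In the submandibular gland, where 9.81% of all probes rose, 9 of the 14 rose. The median effect was 0.67 there and -0.12 in the meibomian gland. Acta2, smooth muscle actin, had 10.4, 9.94 and 9.24 units in meibomian testosterone pools against 13.4, 12.7 and 14.3 in meibomian placebo pools. In submandibular pools it had 34.2, 25.4 and 36.0 units with testosterone against 12.2, 17.7 and 18.2 with placebo. It fell by 0.44 in the meibomian gland (adjusted p = 0.0448 on its own arrays) and rose by 0.99 in the submandibular gland (adjusted p = 0.0025), and the difference was -1.43 ± 0.24 (SE, adjusted p = 0.00436). Myh11, smooth muscle myosin, averaged 8.69 ± 1.89 and 9.43 ± 0.337 units in meibomian testosterone and placebo pools, which overlapped, and 24.1 ± 2.30 and 11.0 ± 0.398 units in submandibular testosterone and placebo pools (SD, n = 3). Its difference was -1.25 ± 0.20 (SE, adjusted p = 0.0041). Tagln, the actin-binding protein transgelin, differed by -1.75 ± 0.25, and Sgca, alpha-sarcoglycan, which was dim in the meibomian gland, by -2.70 ± 0.27 (SE).

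Of 58 probes for fibroblast and matrix genes, 11 were called, all below 0 (19.0%, against 8.92% over all probes), with a median of -0.55. In the submandibular gland 25 rose, against 9.81% of all probes. Timp3, a matrix-bound inhibitor of metalloproteinases, had 3.49, 3.56 and 3.25 units in meibomian testosterone pools against 5.26, 4.62 and 4.84 in meibomian placebo pools. Submandibular pools had 12.4, 10.4 and 13.0 units with testosterone against 4.20, 4.18 and 3.91 with placebo. It fell by 0.49 in the meibomian gland (adjusted p = 0.0357 on its own arrays) and rose by 1.49 in the submandibular gland (adjusted p = 3.71e-06), a difference of -1.99 ± 0.15 (SE, adjusted p = 2.58e-05). Mgp, an inhibitor of calcification, Postn, periostin, and Thbs1, thrombospondin 1, differed by -1.52 ± 0.22, -1.49 ± 0.29 and -1.48 ± 0.29 (SE), with meibomian pools that overlapped. Thbs1 was dim in the meibomian gland. The call for Postn was lost under 1 of 27 alternatives. The fibroblast marker Dcn, decorin, overlapped between treatments in the submandibular gland, at 19.3 to 24.3 units with testosterone and 18.7 to 22.6 with placebo. The other measured marker, Col1a1, was 1.07 to 1.37 with testosterone and 0.516 to 0.614 with placebo.

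**Figure D3:**
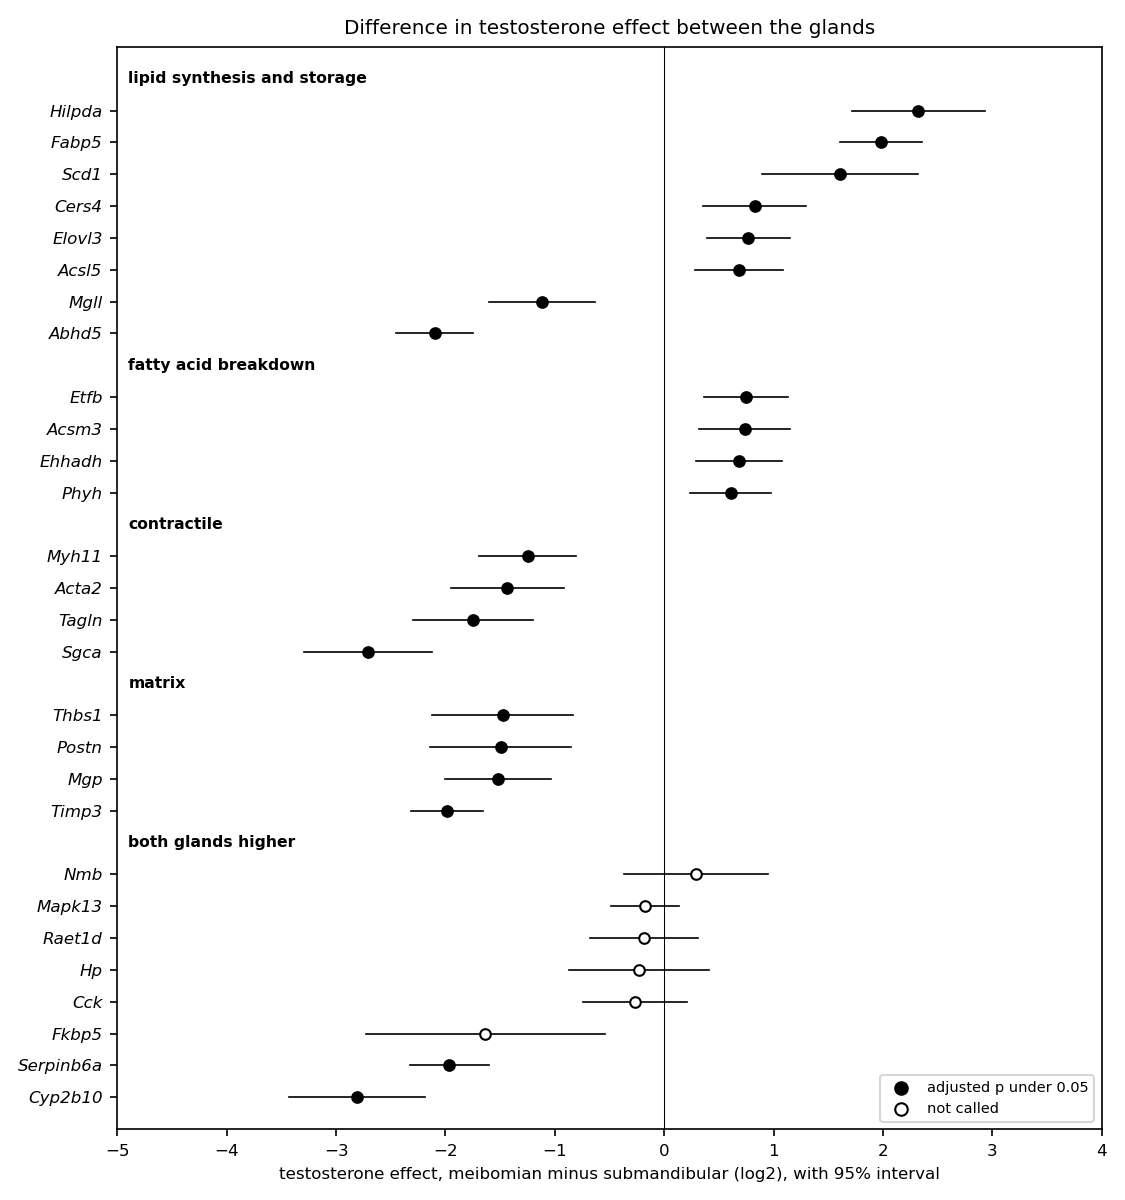
Gland difference in the testosterone effect (log2, meibomian minus submandibular) with its 95% interval for named genes of lipid handling, contraction, matrix and of the group higher with testosterone in both glands; filled points passed the test. Lipid genes lie between 0.61 and 2.32 except Mgll and Abhd5, and the 8 contractile and matrix genes between -2.70 and -1.25.

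Genes of macrophages and MHC class II had 5 of 39 probes called below 0 and 1 above 0, with a median of -0.45. The called share was 15.4%, against 8.92% over all probes. Cd14, the co-receptor for endotoxin, averaged 4.29 ± 1.10 and 4.18 ± 0.573 units in meibomian testosterone and placebo pools, and 15.3 ± 2.83 and 5.38 ± 0.192 units in submandibular testosterone and placebo pools (SD, n = 3). Its difference was -1.45 ± 0.25 (SE, adjusted p = 0.00575). The monocyte chemokine Ccl8 differed by -1.31 ± 0.34 (SE, adjusted p = 0.0378), a call lost under 12 of 27 alternatives. Ccl4, another chemokine, ran the opposite way, with 78.5, 93.7 and 97.2 units in submandibular testosterone pools against 139, 159 and 147 in submandibular placebo pools and a difference of 0.98 ± 0.18 (SE, adjusted p = 0.00674), lost under 1 of 27. The summed macrophage markers Cd74 and Adgre1 were 7.94 to 10.6 in meibomian testosterone pools and 15.3 to 17.9 in meibomian placebo pools, against 14.8 to 17.8 in submandibular testosterone pools and 15.2 to 25.1 in submandibular placebo pools. Their part in these differences was not tested.

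Interferon response and MHC class I genes had 3 of 39 probes called, all below 0, a share (7.69%) no higher than over all probes, with a median of -0.36. Samhd1, a nucleotide hydrolase of antiviral defence, had 2.99, 2.83 and 4.25 units in meibomian testosterone pools against 5.79, 4.93 and 4.81 in meibomian placebo pools, and 4.87, 3.22 and 4.04 units in submandibular testosterone pools against 2.31, 1.33 and 1.57 in submandibular placebo pools. The pools lay apart in opposite directions, and the difference was -1.77 ± 0.30 (SE, adjusted p = 0.00518). B2m, beta-2-microglobulin, the subunit that class I molecules share, averaged 259 ± 7.49 and 130.0 ± 4.30 units in submandibular testosterone and placebo pools (SD, n = 3) and differed by -0.73 (adjusted p = 0.0456), a call lost under 14 of 26 alternatives.

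Where each gland was fitted alone, 20 probes were called in both glands and 6 of these ran in opposite directions. Acta2 and Timp3 fell in the meibomian gland and rose in the submandibular gland. H4c9, Gata5, Dbt and Tas2r119 rose in the meibomian gland and fell in the submandibular gland. H4c9, a histone H4 gene of a family with near-identical copies that the probe may not tell apart, had 41.0, 34.5 and 33.8 units in meibomian testosterone pools against 19.3, 20.3 and 20.8 in meibomian placebo pools. Its level in submandibular pools was 7.52, 10.3 and 10.8 units with testosterone against 22.5, 20.8 and 21.5 with placebo. The placebo pools averaged 20.1 units in the meibomian gland and 21.6 in the submandibular gland, and the testosterone pools lay on either side of them. The difference was 2.03 ± 0.19 (SE, adjusted p = 9.61e-05). Gata5, a zinc finger transcription factor, had 2.55, 2.49 and 2.46 units in meibomian testosterone pools against 1.42, 1.65 and 1.93 in meibomian placebo pools, and 4.72, 4.68 and 4.26 units in submandibular testosterone pools against 8.01, 7.05 and 6.52 in submandibular placebo pools. The differences were 1.18 ± 0.17 for Gata5, 1.51 ± 0.24 for Dbt, a subunit of the branched-chain keto acid dehydrogenase, and 1.56 ± 0.20 for Tas2r119, a bitter taste receptor (SE). No gene was called in opposite directions in both glands by the 12-array fit, in which 4 meibomian probes were called at all.

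Ttpa, the alpha-tocopherol transfer protein that carries vitamin E, also ran in opposite directions. It had 5.42, 5.61 and 4.07 units in meibomian testosterone pools against 1.55, 1.60 and 1.86 in meibomian placebo pools, and 1.80, 2.02 and 2.85 units in submandibular testosterone pools against 3.54, 6.60 and 6.58 in submandibular placebo pools. It rose by 1.49 in the meibomian gland (adjusted p = 0.00594 on its own arrays) and fell by 1.23 in the submandibular gland (adjusted p = 0.00574), a difference of 2.72 ± 0.34 (SE, adjusted p = 0.0007). The submandibular fall was not called on that gland's own arrays (adjusted p = 0.0575). Gpx3, the secreted glutathione peroxidase, had 1.99, 2.43 and 2.79 units in meibomian testosterone pools against 0.946, 0.876 and 1.04 in meibomian placebo pools, and 3.44, 3.46 and 2.95 units in submandibular testosterone pools against 5.31, 3.82 and 9.98 in submandibular placebo pools. It rose by 1.18 in the meibomian gland (adjusted p = 0.0135 on its own arrays), and the difference was 1.99 ± 0.38 (SE, adjusted p = 0.00891).

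A further group was higher with testosterone in both glands. Of the 20 probes called in both glands fitted alone, 13 rose in both, and 1, Foxo1, fell in both. Nmb, the neuropeptide neuromedin B, was the gene called in both glands by the 12-array fit. It had 15.2, 15.4 and 9.28 units in meibomian testosterone pools against 4.00, 4.13 and 4.32 in meibomian placebo pools, and 3.32, 2.50 and 3.48 units in submandibular testosterone pools against 1.38, 1.22 and 0.860 in submandibular placebo pools. It rose by 1.60 in the meibomian gland (adjusted p = 0.027 in the 12-array fit and 0.0165 on its own arrays). In the submandibular gland it rose by 1.31 (adjusted p = 0.00195). Its gland difference was 0.29, with a 95% interval from -0.37 to 0.95. Hp, haptoglobin, which binds free haemoglobin, rose by 1.01 and 1.24 in the meibomian and submandibular glands, with an interval for the difference from -0.87 to 0.41. Cck, cholecystokinin, rose by 0.67 and 0.94, with an interval from -0.74 to 0.21. Mapk13, a p38 kinase of epithelia, and Raet1d, a ligand of the NKG2D receptor, rose by 0.47 and 0.72 in the meibomian gland and by 0.65 and 0.91 in the submandibular gland. Their intervals ran from -0.49 to 0.14 and from -0.68 to 0.31. These intervals do not show that the effects were equal.

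Other genes rose in both glands but by unequal amounts. Cyp2b10, a cytochrome P450 that oxidises steroids and drugs, had 4.42, 4.13 and 4.09 units in meibomian testosterone pools against 2.04, 1.81 and 1.64 in meibomian placebo pools. Its submandibular intensity was 11.7, 7.74 and 13.1 units with testosterone against 0.716, 0.485 and 0.410 with placebo. It rose by 1.13 in the meibomian gland (adjusted p = 0.00594 on its own arrays) and by 3.94 in the submandibular gland (adjusted p = 3.03e-07), and the difference was -2.81 ± 0.28 (SE, adjusted p = 0.000145). Serpinb6a, an intracellular serine protease inhibitor, averaged 38.8 ± 3.01 and 25.3 ± 2.43 units in meibomian testosterone and placebo pools, and 253 ± 29.9 and 41.9 ± 1.79 units in submandibular testosterone and placebo pools (SD, n = 3), with a difference of -1.97 ± 0.16 (SE). The probe named Ifna7, of an interferon family with near-identical copies, differed by -1.68 ± 0.20 (SE) but was dim in the meibomian gland. Fkbp5, a co-chaperone of steroid receptors and a standard androgen-induced gene, had 1.03, 1.18 and 1.30 units in meibomian testosterone pools against 0.651, 0.465 and 0.426 in meibomian placebo pools, and 6.40, 4.65 and 7.31 units in submandibular testosterone pools against 1.19, 1.33 and 0.327 in submandibular placebo pools. It rose by 0.98 in the meibomian gland (adjusted p = 0.0244 on its own arrays) and by 2.61 in the submandibular gland (adjusted p = 0.00057). Its difference of -1.64 was not called (adjusted p = 0.0674), with a 95% interval from -2.73 to -0.55, and passed under 6 of 27 alternatives. Foxo1, a forkhead transcription factor, fell by 0.46 and 1.68 in the meibomian and submandibular glands, and its difference of 1.22 was not called (adjusted p = 0.0827).

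In 98 of the 632 called probes the meibomian effect was the larger in size. Sprr2a1, a cornified envelope protein of a family with near-identical copies, had 6.34, 6.51 and 7.33 units in meibomian testosterone pools against 40.04, 18.9 and 21.0 in meibomian placebo pools, and was dim in every submandibular pool. It fell by 1.88 in the meibomian gland (adjusted p = 0.0195 on its own arrays), and the difference was -2.17 ± 0.40 (SE, adjusted p = 0.00765). Keratins and cornified envelope genes had 4 of 48 probes called, all below 0, a share (8.33%) no higher than over all probes, with a median of -0.22. Krt7 and Krt19, keratins of simple and ductal epithelium, differed by -1.38 ± 0.28 and -1.11 ± 0.28 (SE). Krt7 averaged 35.5 ± 11.1 and 43.0 ± 3.88 units in meibomian testosterone and placebo pools, and 73.0 ± 4.68 and 35.1 ± 3.29 units in submandibular testosterone and placebo pools (SD, n = 3). The call for Krt19 was lost under 10 of 27 alternatives. Pef1, a calcium-binding penta-EF-hand protein, had 11.1, 9.88 and 10.6 units in meibomian testosterone pools against 19.3 and 19.5 in the 2 meibomian placebo pools with a value. It fell by 0.87 in the meibomian gland (adjusted p = 0.027) and its difference was -0.65 (adjusted p = 0.0242), which turned to 1.62 when the code for no value in the third pool was counted as 0.

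In a further 3 groups the share called was below the 8.92% of all probes, at 8.06% for protein folding and secretion, 5.36% for cytosolic ribosomal proteins and 5.88% for oxidative phosphorylation. Of 62 probes for protein folding and secretion, 20 rose in the submandibular gland, where 9.81% of all probes rose. A difference was called for 5, all below 0, and the median was -0.08. Ero1a, the oxidase that supplies disulfide bonds, rose by 1.78 in the submandibular gland and differed by -1.36 ± 0.22 (SE). Pdia4, a disulfide isomerase, and Sdf2l1, a chaperone of the endoplasmic reticulum, differed by -1.17 ± 0.20 and -1.01 ± 0.14 (SE), with pools apart in opposite directions for both. Cytosolic ribosomal proteins had 53 of 56 probes above 0 and 3 called, with a median of 0.36. Rplp1 differed by 0.80 ± 0.16, and Rpl13 and Rps23 by 0.67 ± 0.17 and 0.71 ± 0.19 (SE). With quantile normalization over the 12 arrays the ribosomal median was 0.05, and the calls of Rpl13 and Rps23 were lost under 12 and 14 of 26 alternatives. Oxidative phosphorylation genes had 40 of 51 probes above 0 and 3 called, with a median of 0.29, or 0.17 under that normalization. Atp5j, a subunit of ATP synthase, and Cox7a1, a cytochrome oxidase subunit of muscle and brown fat, differed by 1.01 ± 0.20 and 1.19 ± 0.24 (SE).

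**Figure D4:**
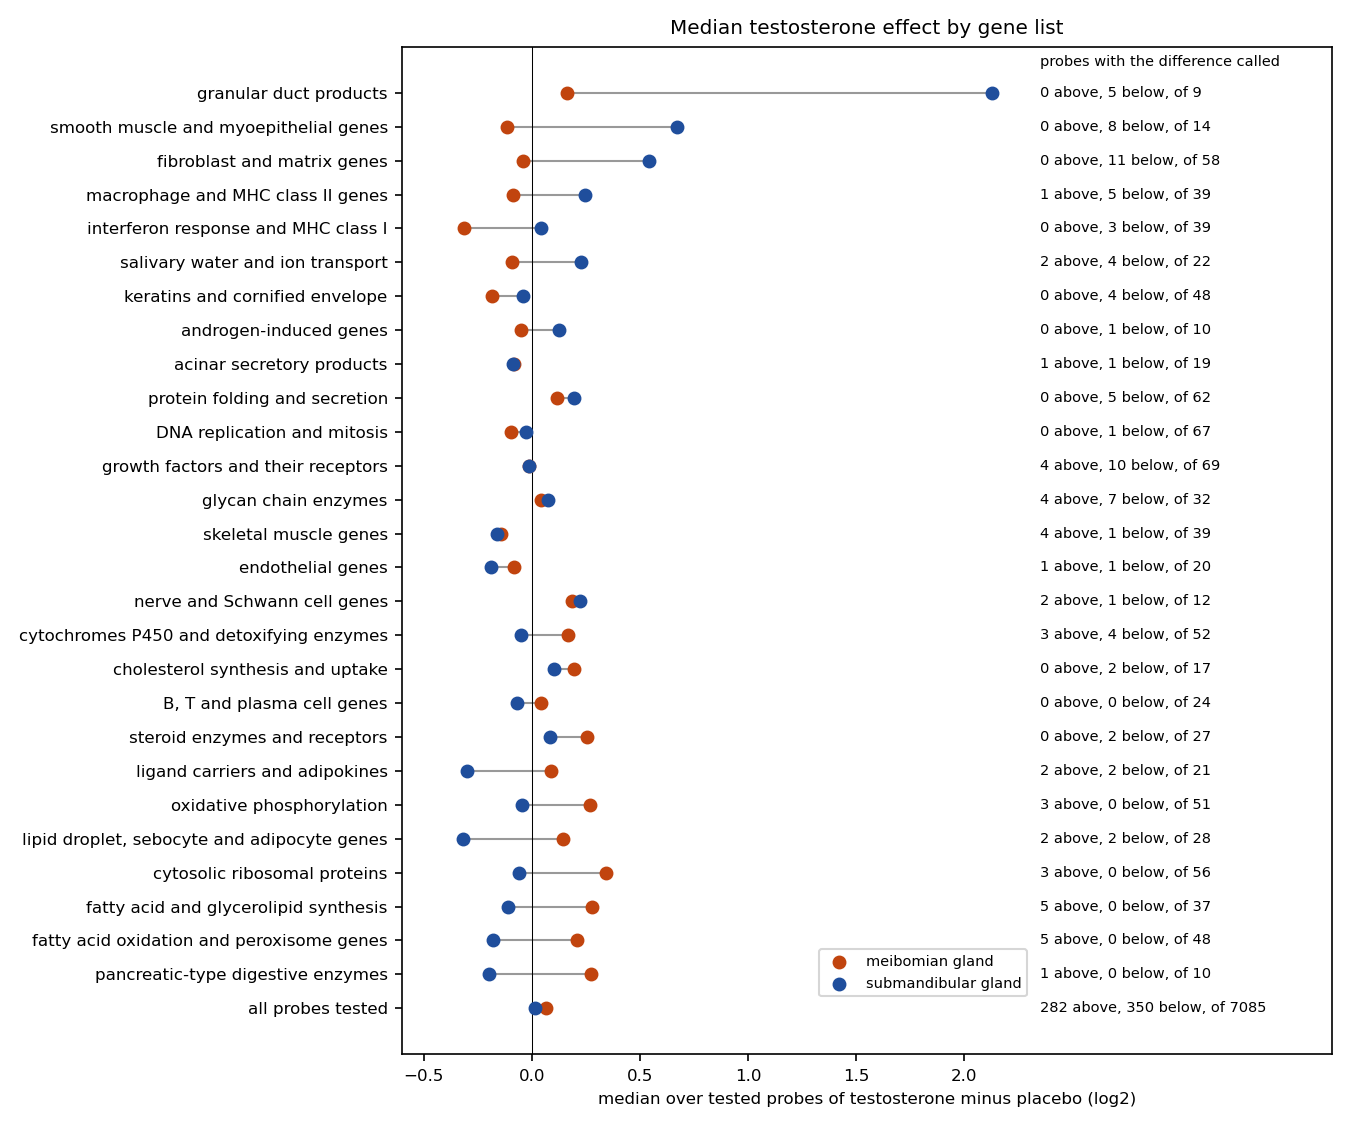
Median testosterone minus placebo effect (log2) over the tested probes of 27 gene lists in the meibomian gland (orange) and the submandibular gland (blue), with all tested probes in the lowest row and the number of probes whose gland difference was called above or below 0 at the right. Granular duct, contractile and matrix lists have submandibular medians of 2.13, 0.67 and 0.54, and lists of lipid synthesis and oxidation have submandibular medians of -0.11 and -0.18 with meibomian medians of 0.28 and 0.21.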

How the data were processed

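The deposited files hold 1-colour intensity per probe, linear and already scaled by the authors. Scaling method, array design and scanner: not given in the sources used here. Probes were named from the platform annotation (8983 of 10500 with 1 symbol, 1 with several, 1516 with none). RefSeq changed 0 symbols. The value -1 (37 to 118 probes per array) was read as missing and other values below 0 (lowest -0.0972) were set to 0. Values were changed to log2(value + 0.174), the offset being the 10th percentile of positive values, so folds of low probes are understated.

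Probes needed at least 2 values per group and a value over the array's 40th percentile on 3 or more of 12 arrays. Missing values removed 133 and low signal 3282, leaving 7085. A gene was called dim in a gland where no array of that gland passed that level. A model of 4 group means over the 12 arrays (limma 3.58.1 in R 4.3.3, intensity trend in eBayes, 8 residual degrees of freedom) gave each contrast, and p-values were adjusted by Benjamini-Hochberg over all probes at 0.05. Each gland was also fitted alone. The number of arrays limits the precision, and p-values measure the spread between pools. Alternatives covered the offset, filter, scaling, variance model, array weights, a block on the replicate letters, thresholds and leaving out each array.

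The comparison and the gene lists were chosen with earlier results of these data known. By rule, the text names genes from the largest called differences, up to 4 called members of each list, genes called in both glands, the largest meibomian calls and a fixed set of androgen and lipid genes. Figures were drawn with matplotlib 3.10.9. Promoter windows and their coordinates are RefSeq's for GRCm38.p6.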

Additional observations from a re-analysis of the deposited data

Results flagged for a closer look

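The testosterone effect differed between the glands, by the test of the difference itself (limma, adjusted p below 0.05), for 72 of the named genes, and these are given here as log2 values without an explanation. The gland difference, meibomian minus submandibular, was -6.01 for Ptgds, -4.56 for St6galnac2, -3.73 for Smr2, -3.72 for Slc4a4, -3.64 for Klrg2 and -3.51 for Tmem37. It was -3.29 for Sult1e1, -3.13 for Epha4, -2.99 for Mfge8, -2.81 for Cyp2b10, -2.79 for Egf and -2.74 for Mdk. Next came values of -2.70 for Sgca, -2.56 for Ttr, -2.25 for Tgfb2, -2.23 for Sgk1, -2.22 for Hsd17b3 and -2.17 for Sprr2a1. The difference measured -2.11 for Vegfa, -2.10 for Abhd5, -1.99 for Timp3, -1.97 for Serpinb6a, -1.77 for Samhd1 and -1.75 for Tagln. Values of the same sign were -1.68 for Ifna7, -1.66 for St3gal5, -1.52 for Mgp, -1.49 for Postn, -1.48 for Thbs1 and -1.45 for Cd14. Further differences below 0 were -1.43 for Acta2, -1.38 for Krt7, -1.36 for Ero1a, -1.31 for Ccl8, -1.25 for Myh11 and -1.17 for Pdia4. The difference came to -1.14 for Scnn1g, -1.12 for Mgll, -1.11 for Krt19, -1.06 for Scnn1b, -1.01 for Sdf2l1 and -0.73 for B2m. It was -0.65 for Pef1. 

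Above 0, the difference was 3.01 for Tmigd1, 2.72 for Ttpa, 2.32 for Hilpda, 2.26 for Ctrb1, 2.24 for St3gal1 and 2.03 for H4c9. The values were 1.99 for Gpx3, 1.98 for Fabp5, 1.78 for Slc37a2, 1.70 for Sox11, 1.61 for Scd1 and 1.56 for Tas2r119. Differences of moderate size were 1.51 for Dbt, 1.49 for Mucl1, 1.19 for Cox7a1, 1.18 for Gata5, 1.03 for Fxyd2 and 1.01 for Atp5j. The difference reached 0.98 for Ccl4, 0.83 for Cers4, 0.80 for Rplp1, 0.77 for Elovl3, 0.75 for Etfb and 0.74 for Acsm3. The remaining values above 0 were 0.71 for Rps23, 0.69 for Acsl5, 0.69 for Ehhadh, 0.67 for Rpl13 and 0.61 for Phyh. Groups of 3 pools are too small for the check on single outlying pools.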

How the results depend on the processing

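The 632 called gland differences (282 above 0, 350 below) stayed within 1.5 times that count, at 529 to 723, under the other fits over all 18 arrays, offsets, filters, scalings and variance models. With array weights there were 1155 (619 above, 536 below). At an adjusted p under 0.01 there were 232 (82 above, 150 below), and with a difference of at least 2-fold 301 (101 above, 200 below). Leaving out 1 array gave 352 to 857 (142 to 434 above, 210 to 423 below), with 352, 364 and 385 without meibomian placebo pool A, B or C, 401 without meibomian testosterone pool B and 857 without submandibular placebo pool A. Residual correlations of same-letter pools ran from -0.0455 to 0.0534 between glands and from -0.112 to 0.137 within a gland. With 3 pools per group, and different tissues between glands, these values cannot tell whether same-letter pools shared mice. A replicate block of 3 letters gave 499, and a replicate block of letter and treatment 288 (98 above, 190 below). The 4 meibomian calls became 51 with 18 arrays, 40 with a larger offset, 7 with quantile normalization within a gland, 35 with robust eBayes, 1918 with array weights, 8 with -1 counted as 0, 2 with the replicate block, 263 on the gland's own arrays, 0 at 0.01, 2 at 2-fold and 0 to 180 without 1 array, so that gland's count depends on the setting. The 1103 submandibular calls became 421 on the gland's own arrays, 537 at 0.01, 282 at 2-fold and 829 to 1417 without 1 array. The 231 called probes with pools apart in opposite directions, counted under alternatives added after seeing the data, numbered 230 to 262 under other scalings and 162 to 345 without 1 array. Of 72 named genes with a called difference, 55 kept their call under every alternative they were refitted in, which leaves out the stricter p and the 2-fold threshold, and the difference of Pef1 turned to 1.62 with -1 counted as 0.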

Other observations

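Other groups had called shares on both sides of the 8.92% over all probes. Nerve and Schwann cell genes had 2 of 12 probes called above 0 and 1 below (25%), with a median of 0.13. Ligand carriers and adipokines had 2 of 21 called in each direction (19%), with a median of 0.27. Of 67 probes for DNA replication and mitosis 1 was called below 0 (1.49%), and their median difference was -0.07, against 0.05 over all probes. Cytochromes P450 and detoxifying enzymes had 3 of 52 probes called above 0 and 4 below (13.5%), with a median of 0.14. Skeletal muscle genes, which were brighter in the meibomian pools, had 4 of 39 called above 0 and 1 below (12.8%), with a median of 0.01. Endothelial genes had 1 of 20 called in each direction, and acinar secretory products 1 of 19 in each direction. In the submandibular gland 4 of these 19 fell and 1 rose, against 5.76% and 9.81% of all probes. Cholesterol synthesis and uptake genes had 2 of 17 called, both below 0, while their median was 0.18.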
